A study of Homo sapiens with 42 samples.

Results

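HNRNPL targeting in MM.1S was examined as the complete table of splicing events that compares cells carrying an HNRNPL guide RNA (sgHNRNPL) with cells carrying an EGFP guide RNA (sgEGFP). Every row of that table was taken, 62835 events in all. Both groups are MM.1S, an established human multiple myeloma cell line that expresses Cas9 here, transduced with the guide by lentivirus, selected with puromycin and kept for 24 hours with IL-6, the cytokine interleukin-6 on which many myeloma cells depend. Each group has 3 strand-specific mRNA libraries, so 6 of the 42 libraries of the series carry this comparison. The same 3 sgEGFP libraries are the controls of another group, MM.1S with a guide against SRSF1 (sgSRSF1, 3 libraries, also with IL-6). The control cells also carry Cas9, a guide and the selection. EGFP is absent from the human genome, so cutting of a human gene by the guide is not matched between the groups. The labels do not say that replicate libraries stem from separate cultures, so the p-values speak for the scatter among these 6 libraries, which could be technical. How many guides were used per gene, and whether the cells are clonal, is not stated.

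HNRNPL is an abundant nuclear protein of the hnRNP family that binds CA repeats and CA-rich stretches of nascent transcripts. Depending on where it binds relative to a splice site it can silence an exon or favour its use, and it is known for controlling CD45 splicing in lymphocytes and for keeping its own transcript in check through an exon that leads to decay. Percent spliced in (PSI) runs from 0 to 100 and gives, for each event, the part of the transcripts in which the exon or intron is kept or the alternative splice site is used. Differences are given in points of PSI, sgHNRNPL minus sgEGFP. No read numbers stand in the table, so how many reads stand behind a PSI is not known, and its precision is judged by the scatter among libraries alone. In these bulk libraries a complete switch in some cells and a partial switch in every cell cannot be told apart.

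Sequences from some of the called events are shown first. The calls of the 4 exons were lost in every fit without a library that could be made, and IFT172 had values in 2 sgEGFP libraries. The 4 exons are, in each direction, the 2 with the smallest adjusted p among called single exon events of at most 150 bases that match an exon of the annotation. Longer exons with a smaller adjusted p are not shown, and the fifth stretch surrounds the alternative CD55 donor, the event with the largest rise, which was chosen after its values were seen. They are transcript strands, 5′ to 3′, from GENCODE release 29 transcripts on GRCh38. Capitals mark runs that hold ACAC or CACA.
GPBP1, higher with sgHNRNPL, coding exon, chr5:57237113-57237172, plus strand: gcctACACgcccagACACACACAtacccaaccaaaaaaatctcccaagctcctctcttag
UBAP2L, higher with sgHNRNPL, coding exon, chr1:154269362-154269412, plus strand: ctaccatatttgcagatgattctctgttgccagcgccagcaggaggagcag
DAZAP1, lower with sgHNRNPL, coding exon, chr19:1425878-1425960, plus strand: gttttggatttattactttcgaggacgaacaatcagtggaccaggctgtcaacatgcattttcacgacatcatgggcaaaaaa
IFT172, lower with sgHNRNPL, coding exon, chr2:27445745-27445843, minus strand: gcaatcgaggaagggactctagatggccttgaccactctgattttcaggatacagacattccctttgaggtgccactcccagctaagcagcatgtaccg
CD55, higher with sgHNRNPL, chr1:207337001-207337300, plus strand, the last 250 bases of the added segment and 50 bases after the donor: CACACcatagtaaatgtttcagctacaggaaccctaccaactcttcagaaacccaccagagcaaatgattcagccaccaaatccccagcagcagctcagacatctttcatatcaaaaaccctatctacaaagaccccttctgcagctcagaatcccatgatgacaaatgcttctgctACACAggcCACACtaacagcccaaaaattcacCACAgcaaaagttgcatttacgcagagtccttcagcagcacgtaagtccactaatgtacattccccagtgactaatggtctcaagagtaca

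More events rose than fell with sgHNRNPL. Of the 49622 events in 9272 genes that had at least 2 values per group and varied after PSI was clipped to 1 and 99, 116 were called, at a Benjamini-Hochberg adjusted limma p under 0.05 and a difference of at least 10 points. That is 0.234% of the events tested. Of these, 94 events were higher with sgHNRNPL (0.189%) and 22 were lower (0.0443%). They lie in 75 genes, 0.809% of the genes tested, 58 with a higher and 18 with a lower event, and DAZAP1 has both. Several rows can describe the same reads (the 116 events hold 99 different sets of PSI values), so genes are the better unit. The called rises had a median of 26.2 points and reached 64.6, and the called falls had a median of -15.7 points, whereas the median over all tested events was 0.10 points. A further 73 events had an adjusted p under 0.05 and differed by less than 10 points. The count depends on each library. In the order in which the table lists them, it was 49, 51 or 52 without one of the sgHNRNPL libraries and 54, 45 or 46 without one of the sgEGFP libraries. In 18 genes, 30 of the events were called in all 6 of these fits, and 45 events in 30 genes were called in none of them.

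**Figure D1:**
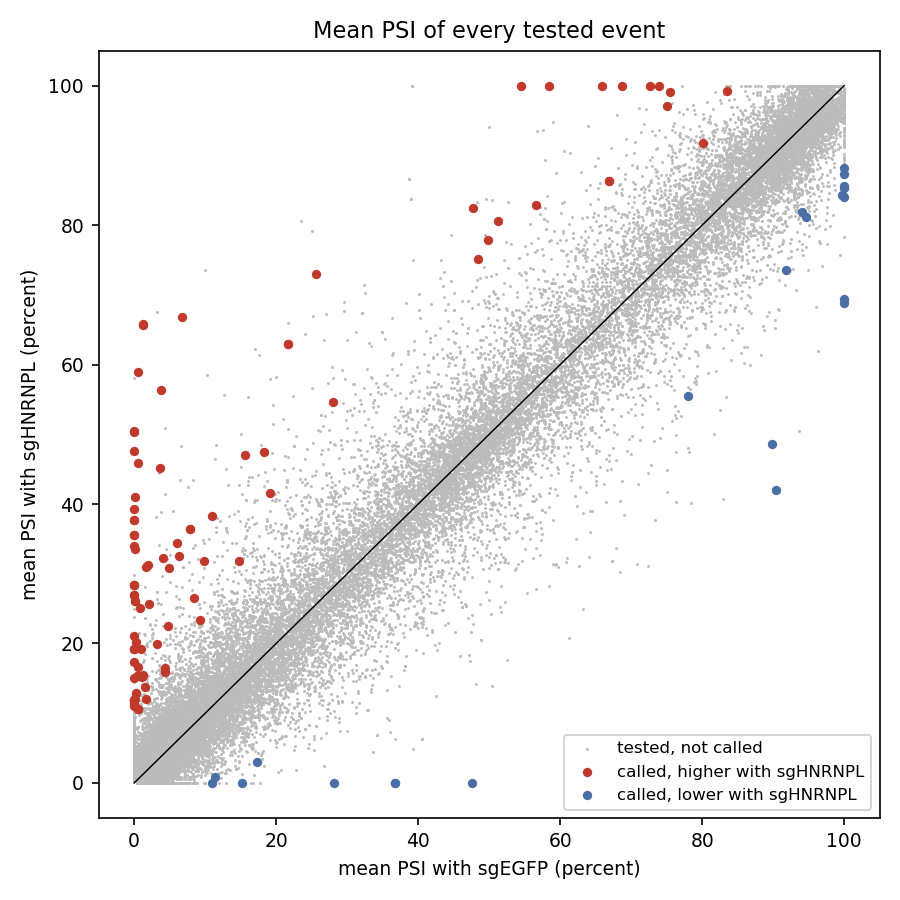
Mean PSI of each tested event with sgHNRNPL (y axis, percent) against its mean PSI with sgEGFP (x axis, percent), with 94 called events that were higher in red, 22 that were lower in blue and the others in grey. Of the 94 red points 43 stand at the left edge, with a mean sgEGFP PSI under 1%.

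HNRNPL itself had 4 listed events. The retained intron at chromosome 19, 38840377 to 38840487, had PSI of 9.62, 8.02 and 7.94 with sgHNRNPL, against 9.48, 8.06 and 7.88 with sgEGFP (adjusted p = 0.989). The 70-base single exon at chromosome 19, 38841613 to 38841682, had 0.214, 0.648 and 0.298 with sgHNRNPL, against 1.11, 0.928 and 1.84 with sgEGFP (adjusted p = 0.730). The libraries of the groups overlap in the first of these and not in the second, and neither was called. The other two events, both intron events below 1% in every library, did not vary after clipping and were not tested. PSI does not measure transcript abundance, so these values do not check whether HNRNPL was lost, and no markers of the cell line were examined.

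The events that rose most were alternative splice sites that sgEGFP cells used rarely or, as listed, not at all. CD55, a membrane inhibitor of complement, used an alternative donor (5′ splice site) 432 bases beyond an annotated exon end at PSI of 72.6, 64.1 and 60.7 with sgHNRNPL, against 1.49, 2.03 and 0 with sgEGFP. Every sgHNRNPL library stood above every sgEGFP library, as in all 94 called rises. The means were 65.8% ± 6.15 with sgHNRNPL and 1.17% ± 1.05 with sgEGFP (SD, n = 3 each, adjusted p = 0.0042). With the wider clipping limits that begin at 0.1 this event was not called. The 510-base intron that holds this donor, chromosome 1, 207336819 to 207337328, also had a higher listed retained share, 54.7, 58.9 and 55.4 with sgHNRNPL, against 5.63, 3.90 and 1.70 with sgEGFP (adjusted p = 0.0268). The 432 added bases lie within this intron, so the events may share reads and cannot be read as separate changes. In GENCODE release 29 this stretch is an intron in 10 of 14 CD55 transcripts, 3 transcripts have an exon across the donor, and none ends an exon at it. The 432 added bases hold 71 CA dinucleotides, 16.4 per 100 bases, and 11 of the runs capitalised above.

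SH3BGRL, a small thioredoxin-fold protein, also had a donor that was rare with sgEGFP, here 18214 bases from the nearest annotated exon end. Its alternative donor at the end of chromosome X, 81202246 to 81237280, had PSI of 66.6, 65.2 and 65.4 with sgHNRNPL, against 1.10, 1.63 and 0.977 with sgEGFP (adjusted p = 9.2e-04). LIN7C, a scaffold protein of cell junctions, used a donor that adds 400 bases (chromosome 11, 27506317 to 27506716, minus strand) at 61.1, 65.6 and 73.9 with sgHNRNPL, against 7.58, 6.45 and 6.25 with sgEGFP (adjusted p = 0.0065). In both genes the groups are separated by more than 50 points. INPP4A, a phosphoinositide phosphatase, used an alternative acceptor (3′ splice site) at chromosome 2, 98582360, at 53.9, 61.2 and 61.7 with sgHNRNPL, against 1.13, 0.293 and 0 with sgEGFP (adjusted p = 5.6e-04). The splice-site calls of these 4 genes held whichever library was left out, whereas the retained CD55 intron was called in 2 of those 6 fits, the ones without the first and the third listed sgEGFP library.

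Sites with a PSI of 0 in every sgEGFP library were found as well. GALM, the galactose mutarotase, used an alternative donor at 42.7, 52.5 and 55.8 with sgHNRNPL and at 0 in all 3 sgEGFP libraries (adjusted p = 0.0015). TMEM178B, a transmembrane protein, used an alternative acceptor at 42.9, 46.2 and 62.5 with sgHNRNPL and at 0 in all 3 sgEGFP libraries (adjusted p = 0.0042). BCL11A, a transcription factor of lymphoid and erythroid cells, had a donor at 42.2, 35.2 and 29.3 with sgHNRNPL and at 0 in all 3 sgEGFP libraries (adjusted p = 0.0026). As these files give no reads, a listed 0 does not show that the site was never used. DAZAP1 and TCF3, which regulate RNA processing and transcription, showed the same form. DAZAP1, an RNA-binding splicing factor, had a donor at 39.5, 42.0 and 41.6 with sgHNRNPL, against 0.291, 0 and 0 with sgEGFP. TCF3, an E protein needed for B cell development, had an acceptor at 38.8, 39.2 and 35.3 with sgHNRNPL, against 0, 0.123 and 0 with sgEGFP (adjusted p = 5.6e-04 for each gene). These 5 genes kept their calls whichever single library was left out, and TMEM178B and BCL11A were not called with untransformed PSI. The remaining 2 splice-site events among the 12 largest rises had a lower contrast. GALNT18, a glycosyltransferase of the mucin type, had 50.5, 41.8 and 43.2 with sgHNRNPL, against 1.75, 4.76 and 4.46 with sgEGFP (adjusted p = 0.0335). KCNQ5, a voltage-gated potassium channel, had 63.6, 60.0 and 65.2 with sgHNRNPL, against 24.1, 16.2 and 24.6 with sgEGFP (adjusted p = 0.0353). GALNT18 was called in 1 of the 6 fits that left out a library, the one without the first listed sgEGFP library, and KCNQ5 in none.

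**Figure D2:**
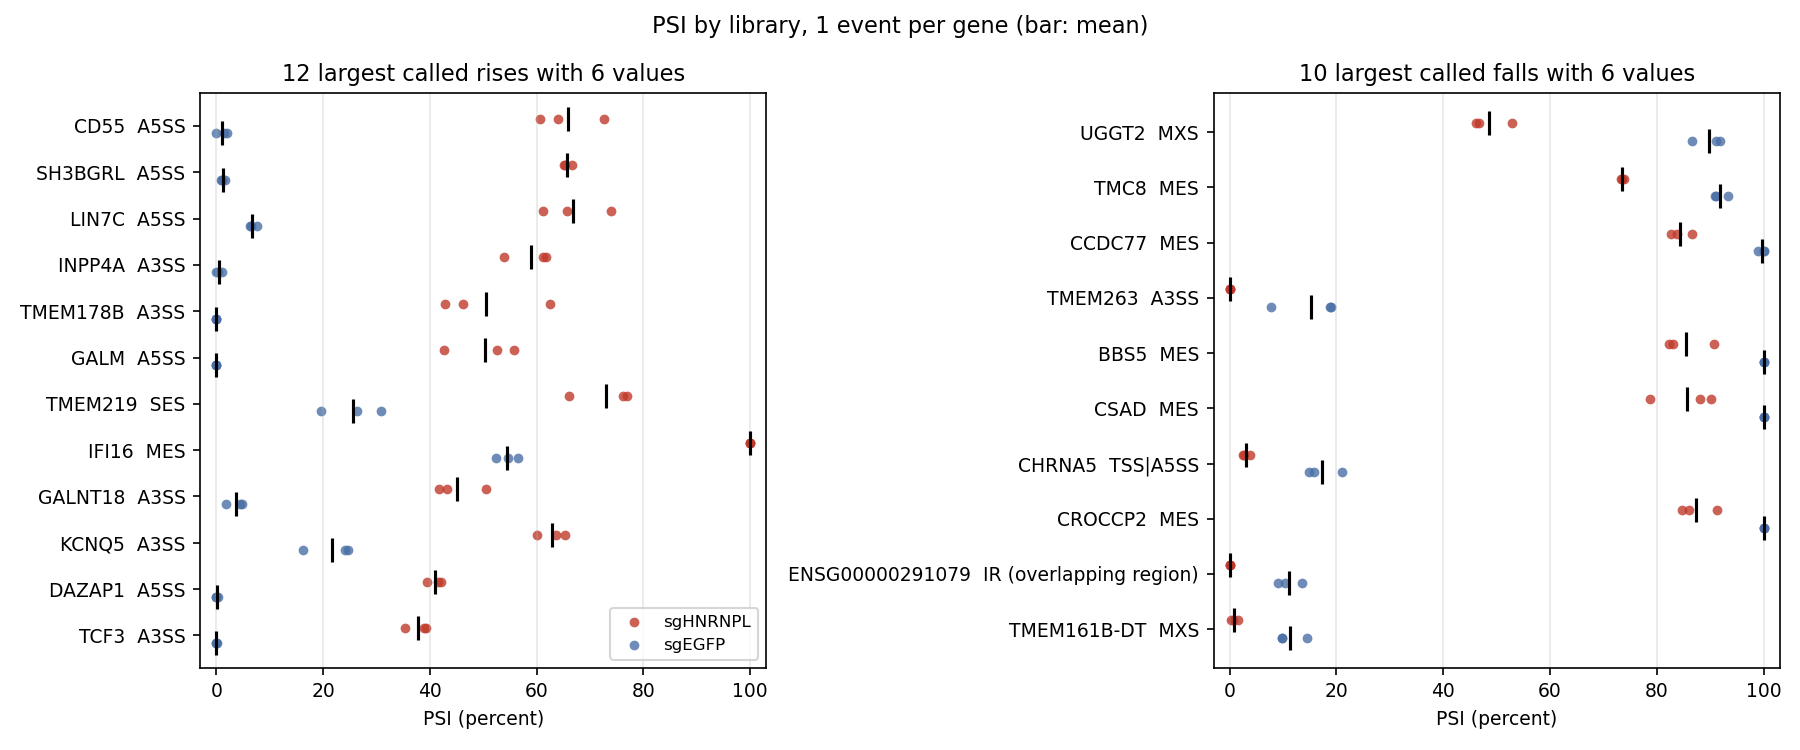
PSI in each library (x axis, percent) of the 12 largest called rises (left) and the 10 largest called falls (right) among events with a value in all 6 libraries, 1 event per gene, the one with its largest change (y axis), sgHNRNPL in red above sgEGFP in blue, with a black bar at each mean. Of the 12 rises, 9 start from sgEGFP values between 0 and 7.58%, and of the falls shown UGGT2 alone exceeds 20 points.

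Over all called rises, 43 events in 22 genes had a mean sgEGFP PSI under 1%, 45.7% of the 94, and 25 events in 11 genes were listed at 0 in every sgEGFP library with a value. Among all tested events 13.1% had a mean sgEGFP PSI under 1%. An event that low in both groups does not vary after clipping and cannot enter the test, so the events near 0 with sgEGFP that were tested are those with a higher value in some library. The size of this group depends on the scale and on the libraries. It held 14 events with untransformed PSI, 24 with clipping to 5 and 95, and 46 with the wider clipping limits that begin at 0.1. With the sgSRSF1 libraries added to the fit it held 10. That fit took only events listed for both guides, and 35 of the 43 are not listed with sgSRSF1, so those were not tested again. The group held 26, 22 or 23 events without one of the sgEGFP libraries and 35, 33 or 34 without one of the sgHNRNPL libraries.

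Most of these sites were not exon ends in the annotation. In this count, alternative donor and acceptor events include those that involve a transcript start. Among such called events that were higher with sgHNRNPL, in genes of GENCODE release 29, 55 of 62 (88.7%) had an alternative site more than 1 base from every exon end of that kind in the gene. The called lower events had 2 of 7 (28.6%), and all tested events had 5847 of 16441 (35.6%). Among tested events with a mean sgEGFP PSI under 1% the share was 48.8%, and among the called rises of that kind it was 39 of 40 (97.5%). Of the 55 events, 39 were under 1% with sgEGFP, and such a site can be called only through its sgHNRNPL values. The contrast with all tested events is therefore partly set by that selection. The 55 events stand for 38 sites in 30 genes, with a median distance of 865 bases to the nearest annotated exon end and a range of 14 to 54508 bases. The authors' annotation release is not stated, and a site outside release 29 may lie in another one.

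**Figure D3:**
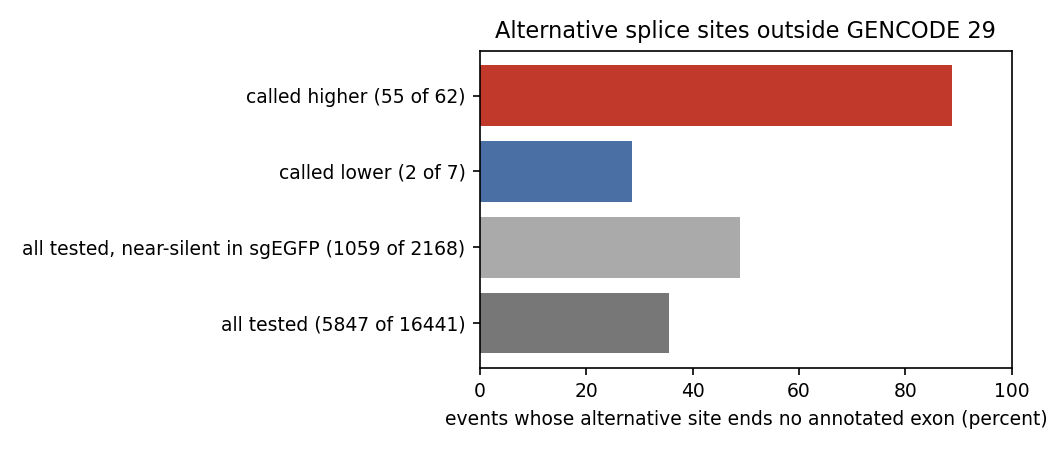
Share of alternative donor and acceptor events, with those that involve a transcript start, whose alternative site ends no exon of its gene in GENCODE release 29 (x axis, percent), for called events that were higher and lower with sgHNRNPL, all tested events with mean sgEGFP PSI under 1%, and all tested events. The called rises stand at 88.7%, against 35.6% of all tested events and 48.8% of tested events with mean sgEGFP PSI under 1%.

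In 6 genes an unannotated acceptor and an unannotated donor lay in the same gap between exons and bounded a common interval, and in none did that interval overlap an annotated exon of the gene. In SH3BGRL it was 163 bases, chromosome X, 81237118 to 81237280, with an acceptor at 45.9% ± 2.02 with sgHNRNPL and 0.480% ± 0.305 with sgEGFP (SD, n = 3 each). In INPP4A a second, separate interval of 86 bases at chromosome 2, 98538642 to 98538727, had a donor at 19.2% ± 1.05 with sgHNRNPL and 0.960% ± 0.281 with sgEGFP. LPIN1, a phosphatidate phosphatase, had the shortest, 36 bases at chromosome 2, 11770991 to 11771026, with a donor at 31.3% ± 4.87 with sgHNRNPL and 1.99% ± 0.903 with sgEGFP. The intervals of DAZAP1 (752 bases), BCL11A (1155 bases) and GALM (2072 bases) were longer. Without a library, the LPIN1 donor was called in 1 of 6 fits, its acceptor in 4 and the BCL11A acceptor in none. Whether both ends were used in the same transcript cannot be read from PSI.

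Cassette exons also changed, mostly toward inclusion. Single and multiple exon events gave 23 called rises in 20 genes and 8 called falls in 7 genes. Of the single exon events 14 were called with all libraries and 1 or 2 without any one library. The 60-base GPBP1 exon shown above, from a gene for a promoter-binding protein, had PSI of 82.9, 82.1 and 82.2 with sgHNRNPL, against 48.7, 48.2 and 46.2 with sgEGFP (adjusted p = 0.00996). The 51-base exon of UBAP2L, a protein of stress granules, had 83.3, 83.7 and 81.6 with sgHNRNPL, against 54.8, 56.7 and 58.3 with sgEGFP (adjusted p = 0.0239). Both exons moved by over 25 points with group SDs under 2 points, yet neither was called in any fit that left out a library. ZRANB2, a zinc finger protein of the spliceosome, had a 75-base exon at 79.5, 77.0 and 77.0 with sgHNRNPL, against 50.9, 49.2 and 49.5 with sgEGFP (adjusted p = 0.0251). It was chosen after its values were seen, as was the 45-base exon of GNAS, the stimulatory G protein alpha subunit, at 55.2, 54.6 and 54.0 with sgHNRNPL, against 27.1, 28.2 and 28.6 with sgEGFP (adjusted p = 0.0284). Neither was called in any fit that left out a library.

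IFI16, a nuclear DNA sensor, had a pair of coding exons of 168 bases each that reached 100% in every sgHNRNPL library. The exon at chromosome 1, 159049432 to 159049599, had 56.6, 52.4 and 54.5 with sgEGFP, and its neighbour at 159045297 to 159045464 had 61.5, 57.1 and 56.7 (adjusted p = 5.6e-04 for each, called whichever library was left out). In the table's mutually exclusive form, the first of these exons had a mean of 31.8% ± 1.63 with sgHNRNPL and 14.8% ± 0.249 with sgEGFP, so the 100% belongs to 1 of several event definitions. TMEM219, a cell surface death receptor, had a 99-base exon that the authors' deposited table tags as leading to nonsense-mediated decay, at 76.9, 66.0 and 76.2 with sgHNRNPL, against 30.8, 19.7 and 26.4 with sgEGFP (adjusted p = 0.0453). The groups do not overlap, as in every called event, and the TMEM219 call was lost whichever library was left out. Events with that tag made up 8 of the 94 called rises (8.51%), in TMEM219, NSD2, LRP8, GNL3L, UROS and LCMT1, and none of the falls, against 10.1% of all tested events. All 8 are exon events, whereas 60 of the 94 rises are alternative donors or acceptors, so these shares are not like for like. Among exons that match the annotation, 6 of 20 higher ones (30%) were marked for decay. The same count gave 1 of 8 lower exons (12.5%) and 19.7% of those not called. It marks a lower exon although no called fall carries the tag, so the counts are not interchangeable. The difference was not tested.

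The exons themselves were compared by description. Of 20 called higher exons that match release 29, 2 held ACACACA or CACACAC (10%), searched on the transcript strand, where both motifs can overlap. None of the 8 called lower exons did, and 1.55% of 13703 exons not called did. The shorter words ACAC or CACA stood in 15 of the 20 higher exons (75%), 2 of the 8 lower ones (25%) and 48.5% of the exons not called. The median was 11.5 CA dinucleotides per 100 bases in the higher exons, 7.62 in the lower and 7.55 in those not called. Median lengths were 94.5, 98.5 and 113 bases in the same order, and 10 of the 20 higher exons had a length divisible by 3, against 43.6% of those not called. With so few called exons these are counts, not tests, and the flanking introns were not read.

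Fewer events fell. UGGT2, a relative of the glucosyltransferase that senses misfolded glycoproteins in the endoplasmic reticulum, had a 101-base coding exon of a mutually exclusive pair at 52.9, 46.7 and 46.2 with sgHNRNPL, against 91.8, 86.6 and 91.1 with sgEGFP (adjusted p = 0.0219). Of the falls with a value in all 6 libraries it was the largest, at -41.2 points (LINC01138 and NCAPG2, named after their values were seen, had -48.5 and -47.6 points and lacked a value in a library), and it was called without the second listed sgEGFP library and not without any of the other 5. TMC8, a transmembrane channel-like protein, had a 98-base coding segment at 73.8, 73.3 and 73.4 with sgHNRNPL, against 90.9, 93.4 and 91.2 with sgEGFP (adjusted p = 0.0339, lost whichever library was left out). CCDC77, a coiled-coil protein, had a 126-base coding exon at 86.6, 83.8 and 82.7 with sgHNRNPL, against 100, 99.003 and 100 with sgEGFP (adjusted p = 0.0028), and of the 22 called falls it was the one called in all 6 of the fits without a library. It was not called with the clipping limits that begin at 0.1 or with the sgSRSF1 libraries added to the fit.

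DAZAP1 fell at 2 annotated places while its unannotated sites rose. Inclusion of its 83-base coding exon shown above was 81.9, 81.2 and 82.6 with sgHNRNPL, against 94.2, 94.5 and 93.6 with sgEGFP (adjusted p = 0.0264). The acceptor that adds 3 coding bases, chromosome 19, 1421148 to 1421150, had 54.6, 56.5 and 55.5 with sgHNRNPL, against 79.5, 75.9 and 78.4 with sgEGFP (adjusted p = 0.0475). This acceptor closes the same gap as the unannotated DAZAP1 donor, so these events share reads. Both calls were lost whichever library was left out.

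The other named falls were smaller or rested on fewer values. The 99-base exon of IFT172, a subunit of intraflagellar transport, had 85.0, 88.4 and 78.6 with sgHNRNPL, against 100 in the 2 sgEGFP libraries with a value (adjusted p = 0.0453). BBS5, a BBSome subunit, CSAD, an enzyme of taurine synthesis, and CROCCP2, a pseudogene transcript, were at 100 in every sgEGFP library and at 85.4% ± 4.70, 85.6% ± 6.13 and 87.3% ± 3.49 with sgHNRNPL. CHRNA5, a nicotinic receptor subunit, had 3.80, 2.53 and 2.63 with sgHNRNPL, against 15.7, 14.9 and 21.1 with sgEGFP. Events of TMEM263 and ENSG00000291079 were listed at 0 in every sgHNRNPL library, against means of 15.2% ± 6.47 and 11.02% ± 2.35 with sgEGFP, and TMEM161B-DT had 0.868% ± 0.660 with sgHNRNPL and 11.4% ± 2.63 with sgEGFP. None of these 8 genes was called in more than 2 of the fits that left out a library, and none was called with untransformed PSI. Of the 22 falls 9 lacked a value in a library, against 3 of the 94 rises.

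Alternative donors and acceptors made up 67 of the 116 called events, in 39 genes. Called shares were 0.537% of tested alternative donors (28 higher, 2 lower) and 0.529% of tested alternative acceptors (32 higher, 5 lower). They were 0.262% for multiple exon events, 0.195% for mutually exclusive exons and 0.127% for single exons. Overlapping retained regions had 0.0918%, and events that involve a transcript start 0.163% with an acceptor and 0.0713% with a donor. Retained introns were called least, in 3 of 8006 tested (0.0375%), all higher, namely CD55, ERMAP and FERMT3. ERMAP, a red cell membrane adhesion molecule, had 46.2, 56.5 and 40 with sgHNRNPL and 0 in the 2 sgEGFP libraries with a value, and FERMT3, the kindlin of blood cells, had 12.5, 11.1 and 9.52 with sgHNRNPL and 0 in all 3 sgEGFP libraries. The direction of retained introns depends on the rule: with untransformed PSI 10 were called, 4 of them higher, and with the deposited, unadjusted p 21 were higher and 46 lower. The order of the types does as well. With the sgSRSF1 libraries added, the fit held only events listed for both guides. There 44 single and 26 multiple exon events were called, against 21 alternative acceptors and 15 donors. With the deposited p 288 single and 187 multiple exon events were called, against 165 acceptors and 122 donors. Because rows of a gene share reads, these shares describe the table and were not tested between types.

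**Figure D4:**
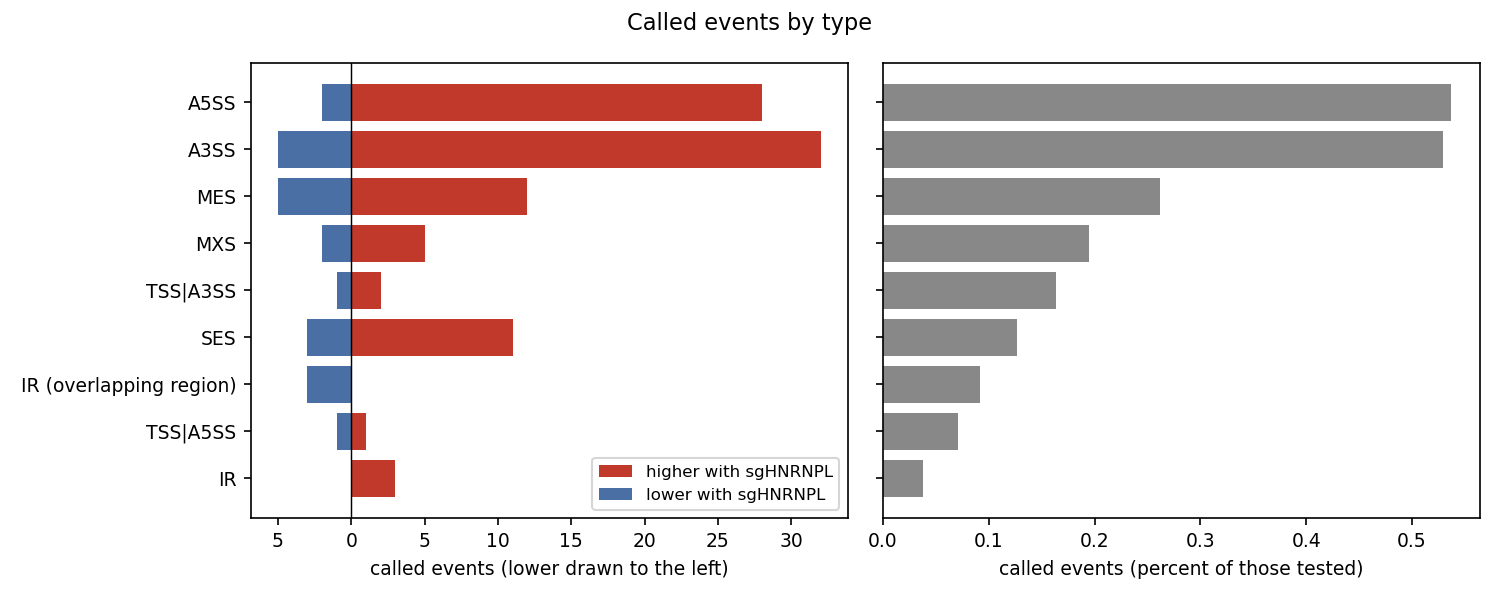
Called events by type: number higher with sgHNRNPL (red, to the right) and lower (blue, to the left) on the left panel, and called events as a percent of those tested on the right panel. A5SS and A3SS are alternative donors and acceptors, SES and MES single and multiple exons, MXS mutually exclusive exons, IR retained introns and TSS events that involve a transcript start, and donors and acceptors stand highest in this fit, at 0.537 and 0.529%.

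Medians over all events of a type that had 6 values were compared by library. The median PSI of 6554 alternative donors was 4.13, 4.10 and 3.93 with sgHNRNPL, against 3.64, 3.50 and 3.47 with sgEGFP, and that of 8187 alternative acceptors 5.28, 5.49 and 5.44 with sgHNRNPL, against 4.78, 4.84 and 4.57 with sgEGFP. In both, the libraries of the groups did not overlap (two-sided exact permutation test, p = 0.1, the smallest that 3 against 3 allows). The median of 11862 retained introns was 1.194, 0.990 and 1.27 with sgHNRNPL, against 1.11, 0.948 and 1.04 with sgEGFP, and these overlap (exact permutation p = 0.3). The medians of single exons and of mutually exclusive exons were also higher in every sgHNRNPL library, by 0.49 and 0.40 points. Those of events with a transcript start and a donor were lower in every sgHNRNPL library, at 5.41, 5.26 and 5.36 with sgHNRNPL, against 5.56, 5.45 and 5.56 with sgEGFP (exact permutation p = 0.1 for each of these 3). The medians of the other 3 types overlapped. This pattern depends on the summary. By mean PSI, the libraries overlapped for events with a transcript start and a donor (exact permutation p = 0.9). Means of multiple exon events, and of events with a transcript start and an acceptor, were higher in every sgHNRNPL library (exact permutation p = 0.1 for each). All of these differences are below 1 point.

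Gene lists of 13 kinds were counted against the 0.809% of genes called in all. A gene counts as called through any of its events, and the number of events per gene differs between lists. Chromatin regulators had 3 of 54 measured genes called, all higher. These 54 genes had 526 events, against 49622 events in 9272 genes in all, so the shares are not like for like. NSD2, a histone methyltransferase that is rearranged in a subset of myelomas, had a 227-base exon with the decay tag at 38.7, 36.5 and 39.8 with sgHNRNPL, against 9.13, 11.5 and 12.4 with sgEGFP (adjusted p = 0.0233). BPTF, a subunit of a nucleosome remodelling complex, had a 162-base coding exon at 28.9, 32.8 and 30.7 with sgHNRNPL, against 4.07, 5.22 and 5.26 with sgEGFP (adjusted p = 0.0086). KDM2A, a histone demethylase, used an unannotated acceptor at 12.1, 14.4 and 12.2 with sgHNRNPL, against 0.870, 0 and 0 with sgEGFP (adjusted p = 0.0027). The KDM2A call held whichever library was left out but not with the clipping limits that begin at 0.1, the BPTF call held without the first listed sgEGFP library and no other, and the NSD2 call held in none of these fits.

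Outside chromatin, XRN2, a nuclear exonuclease of RNA turnover, used an unannotated donor at 10.0, 14.2 and 11.9 with sgHNRNPL, against 0, 0.244 and 0.219 with sgEGFP (adjusted p = 0.0058, held whichever library was left out but not with untransformed PSI or with clipping limits that begin at 5), 1 of 28 genes of its list. TARDBP, the RNA-binding protein TDP-43, was the 1 of 63 core spliceosome and other splicing regulators that was called, with a retained overlapping region at 65.0, 61.5 and 80.0 with sgHNRNPL, against 100 in both sgEGFP libraries with a value (adjusted p = 0.0439). It was called in 1 of the 4 fits without a library that could be made, the one without the sgHNRNPL library listed last. UGGT2 was 1 of 36 genes of protein secretion. No gene was called among 25 hnRNP proteins, 21 SR proteins and their kinases, 20 B cell and plasma cell genes, 32 genes of IL-6, NF-kB and MAP kinase signalling, 34 of the cell cycle, 28 of apoptosis, 44 of DNA repair, 32 of the cytoskeleton, or 12 genes with HNRNPL-responsive events reported in other cells. Some of their members moved far without passing the test. In the last list, TJP1, a tight junction scaffold, had an exon at 54.1% ± 7.37 with sgHNRNPL and 19.6% ± 2.78 with sgEGFP (adjusted p = 0.060), and CD44, the hyaluronan receptor, an exon segment at 48.1% ± 2.04 with sgHNRNPL and 34.7% ± 1.42 with sgEGFP (adjusted p = 0.17). SLAMF7, a surface protein of plasma cells, had a segment at 78.2% ± 0.971 with sgHNRNPL and 56.9% ± 2.86 with sgEGFP (adjusted p = 0.058). With the deposited, unadjusted p under 0.05 in place of limma, 1.81% of events and 7.5% of genes were called. By list these were 3 of the 12 responsive genes, 8 of the 32 cytoskeletal genes, 4 of the 25 hnRNP proteins, 3 of the 20 B cell and plasma cell genes, 6 of the 54 chromatin regulators, 3 of the 28 genes of RNA turnover, 2 of the 21 SR proteins and kinases and 3 of the 34 cell cycle genes. Shares below 7.5% were found for 2 of the 28 apoptosis genes, 3 of the 44 DNA repair genes, 4 of the 63 splicing regulators, 2 of the 36 secretion genes and 1 of the 32 signalling genes.

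The called events were then set beside the sgSRSF1 libraries, which share the sgEGFP controls. SRSF1 is an SR protein that mostly favours exon inclusion. Of the 116 called events 64 (55.2%) were also listed in the sgSRSF1 table, against 86.6% of all tested events, and 35 of the 52 not listed had a mean sgEGFP PSI under 1%. In a limma fit of the 9 libraries, 47 of the 64, in 32 genes, differed between sgHNRNPL and sgSRSF1 at adjusted p under 0.05 and 10 points, where 5.76% of the 44303 events fitted did. The sgHNRNPL libraries that chose these events also enter this difference, so the count is not independent of the choice. CD55 used its alternative donor at 65.8% ± 6.15 with sgHNRNPL, 9.14% ± 2.72 with sgSRSF1 and 1.17% ± 1.05 with sgEGFP (SD, n = 3 each, adjusted p between the guides 8.3e-04). INPP4A had 58.9% ± 4.35 with sgHNRNPL, 11.4% ± 3.51 with sgSRSF1 and 0.473% ± 0.585 with sgEGFP (adjusted p between the guides 5.8e-04). TCF3 had 37.8% ± 2.17 with sgHNRNPL, 0.750% ± 0.180 with sgSRSF1 and 0.0409% ± 0.0708 with sgEGFP (adjusted p between the guides 2.8e-06).

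Some other called events stood at like levels with both guides. BPTF had 30.8% ± 1.93 with sgHNRNPL and 28.3% ± 7.85 with sgSRSF1, against 4.85% ± 0.675 with sgEGFP (adjusted p between the guides 0.73). UBAP2L had 82.9% ± 1.08 with sgHNRNPL and 78.6% ± 2.37 with sgSRSF1, against 56.6% ± 1.72 with sgEGFP (adjusted p between the guides 0.18). A p above the threshold does not show that the guides act alike. In all, 17 of the 64 did not pass, and some of these failed on the size of the difference alone. In the same limma fit the DAZAP1 coding exon had -7.72 points, sgHNRNPL minus sgSRSF1 (adjusted p between the guides 0.0071). ANXA11 had 9.36 points (adjusted p between the guides 0.0117). BPTF and UBAP2L failed on both p and size. The 17 are therefore not a count of events at like levels. Of the 47 that did, LINC01138, chosen after its values were seen, stood the other way, at 41.9% ± 5.33 with sgHNRNPL, 21.0% ± 1.12 with sgSRSF1 and 90.5% ± 0.643 in the 2 sgEGFP libraries with a value. Its call against sgEGFP was lost in all 4 fits without a library that could be made.

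**Figure D5:**
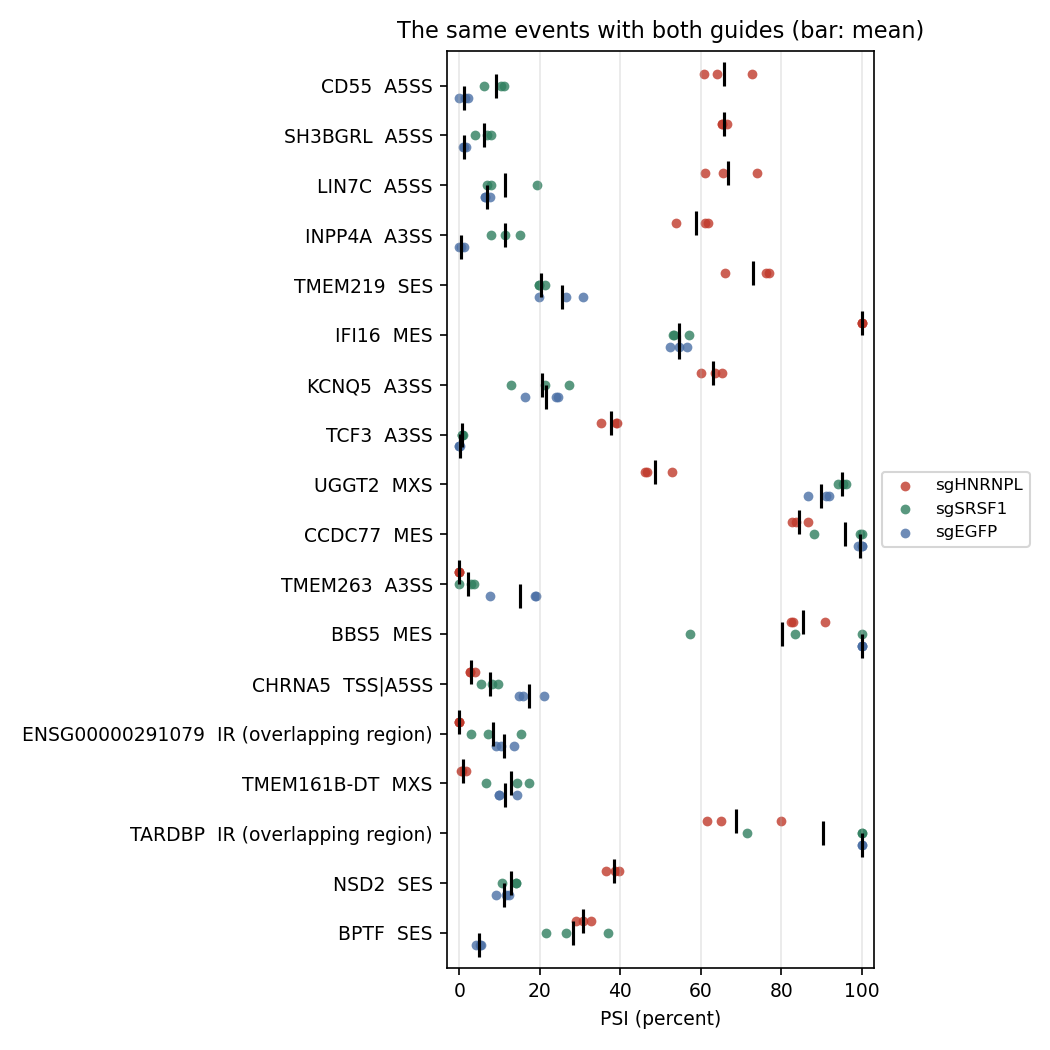
PSI in each library (x axis, percent) of the named called events that the sgSRSF1 table also lists (y axis), with sgHNRNPL in red, sgSRSF1 in green and sgEGFP in blue, and a black bar at each mean. CD55, SH3BGRL, LIN7C and INPP4A stand above 50% with sgHNRNPL alone, while BPTF stands near 30% with both guides.

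The remaining MM.1S tables list only events with a deposited p under 0.05 in their own comparison. Called events appeared there at shares near or below those of all tested events. The IL-6 table lists 8 of the 116 (6.9%) and 8.14% of all tested events. The sgPOU2AF1 table lists 6 (5.17%) and 5.48% of tested events, and in the sgELL2 table there are 3 (2.59%) and 3.62% of tested events. These tables give PSI of other MM.1S libraries for the same events. ANXA11, an annexin, had an alternative donor at 25.6, 22.3 and 22.1 with sgHNRNPL, a call that was lost whichever library was left out. It had 6.40, 4.78 and 3.44 in MM.1S with IL-6, 9.36, 8.31 and 8.51 without IL-6, and 10.8, 8.75 and 11.4 and 7.86, 7.81 and 7.23 in the sgEGFP controls of sgPOU2AF1 and of sgELL2. The CD55 intron event, which overlaps the alternative donor segment, had 54.7, 58.9 and 55.4 with sgHNRNPL, against 4.90, 5.56 and 0.917 in the sgEGFP controls of sgELL2. In each of the 8, 8, 6 and 3 events listed, the sgHNRNPL libraries lay beyond all libraries of MM.1S with IL-6, without IL-6, and the 2 other sgEGFP groups. The 8 events with and without IL-6 are the same, in 6 genes. Events were called for their sgHNRNPL values, so this was largely set by the call. Against their own sgEGFP controls the groups did not overlap in 17.8% of all tested events and in 100% of those called. That share was not taken for the other groups.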

How the data were processed

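Strand-specific mRNA libraries were aligned to GRCh38 with STAR 2.7.10b and handled with SAMtools 1.19.2, per the submitters' processing notes. Neither the splicing caller nor its annotation is stated. Libraries were built at 1 of 2 providers, per the labels' protocols, and which built which is not stated, so provider and group cannot be told apart.

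The authors' deposited table gives for each event the PSI of every library in percent, from 0 to 100, and a p-value. The deposited p-value column is headed as a false discovery rate, but Welch's test recomputed from the listed PSI came within 1% of it in 100% of the 57895 events that have one, so it is taken as unadjusted. The deposited difference matched the means within 0.01 points in all but 2 events. Values carry no library name. Their place in the list marks a library, since all 43599 events with 3 different sgEGFP values in both tables had them in the same places in the sgSRSF1 table. Events were matched between tables by region, transcript, type and target.

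PSI was clipped to 1 and 99, turned into a base 2 logit and fitted with limma 3.58.1 in R 4.3.3 for events with at least 2 values per group that varied, with Benjamini-Hochberg adjustment over all 49622. The other 13213 listed events were not fitted. Calls needed an adjusted p under 0.05 and 10 points. The fit was also run on simulated data, with rises added only to events well above 0 in the controls. That run does not cover sites near 0 with sgEGFP and is not used as support for the calls. Exact permutation tests used scipy 1.17.1, and tables and figures pandas 2.3.3 and matplotlib 3.10.9, in Python 3.11.15. Exon ends and sequences came from GENCODE release 29, whose transcripts were given and whose genome was not used here.

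Named events are those of HNRNPL, the 12 largest called rises and up to 12 largest called falls with 6 values, 1 per gene (10 falls had them), the largest called event of each list gene, and the 2 rises and 2 falls with the smallest adjusted p among called single exons of at most 150 bases outside chromosome 8 that match release 29. BCL11A, LPIN1, ZRANB2, GNAS, ERMAP, FERMT3, LINC01138, NCAPG2, ANXA11, the further events of named genes and the list members that missed the test were named after their values were seen. The members, lists and tests were chosen with earlier results of these data known. Coordinates are 1-based on GRCh38.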

Additional observations from a re-analysis of the deposited data

How the results depend on the processing

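No paired analysis was possible because the PSI values in the deposited table carry no replicate number. The planned intron windows of 100 and 250 bases were not run, since no genome sequence was used here. Called events numbered 116 (94 higher, 22 lower). They numbered 67 (58 higher, 9 lower) at 20 points or more, and 1047 (650 higher, 397 lower) with the deposited unadjusted p under 0.05. Leaving out 1 library gave 45 to 54 events, 38 to 51 of them higher and 3 to 8 lower. Falls numbered 13 when all 6 values were required and 12 with trend and robust empirical Bayes. They numbered 34 with the sgSRSF1 libraries added, where only events listed for both guides were fitted. With untransformed PSI 119 events were called, of which 58 were among the 116, with clipping to 5 and 95 there were 131, of which 79 were, and with the wider clipping limits that begin at 0.1 there were 107, of which 89 were. The number of named events called was 16 of 27 with untransformed PSI, 22 of 27 with trend and robust empirical Bayes, and 12 to 15 without a library. The cause was not tested. Events differing from sgSRSF1 numbered 45 of 64 with untransformed PSI, against 47. Read depth per event is unknown and limits every single PSI.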
